A study of Mus musculus with 6 samples.

Results

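The glucocorticoid receptor and 4 genes that respond to it were followed in mouse visual cortex after the loss of 1 eye. The 5 genes were Nr3c1 (the receptor), Fkbp5, Sgk1, Klf9 and Ddit4. Members were all probe sets, the groups of short array oligonucleotides that together read 1 value, usually for 1 gene, whose platform annotation names 1 of these genes. This gave 6 of the 12422 probe sets that are not controls: 2 for Klf9 and 1 for each of the other genes. The arrays came from adult wild-type C57Bl6 mice, of which 4 had 1 eye removed at postnatal day 100 and were killed 4 days later. The deprived group (3 arrays) was visual cortex contralateral to the removed eye, and the non-deprived group (3 arrays) was visual cortex ipsilateral to it. Both groups therefore carried the surgery, and no unoperated cortex was analysed here. A change shared by both groups, such as a response to hormone in the blood, therefore cannot be seen. The samples were pools of tissue, and the labels do not say how many mice a pool held or whether the 3 arrays of a group were separate pools, so every p-value here reflects the scatter among these arrays, which may be technical.

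Glucocorticoids (corticosterone in the mouse) are adrenal steroids that reach the brain through the blood and rise with stress and with the daily active phase. The receptor waits in the cytoplasm in a complex of Hsp90 chaperones and immunophilins, and with hormone bound it enters the nucleus and acts on genes that carry a glucocorticoid response element, a pair of inverted half-sites. Fkbp5 encodes an immunophilin that lowers the receptor's affinity for hormone and is itself induced by the receptor, a short feedback loop. Sgk1 encodes a kinase related to Akt that acts on ion channels and transporters, Klf9 a zinc-finger transcription factor that thyroid hormone also induces, and Ddit4 (also called Redd1) an inhibitor of the mTORC1 growth pathway.

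Promoter windows were searched for the response element close to the annotated starts of these genes. Each window runs from 250 bases before to 50 bases after an annotated gene start (RefSeq, build GRCm38.p6). The table of windows matched 4 members: Klf9, Ddit4 and Fkbp5 with 1 window each and Sgk1 with 6. The full element, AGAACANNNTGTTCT, stood in 1 of these 9 windows, at the fifth of the Sgk1 starts. Among all 32851 windows 3 held it (0.00913%). In Sgk1 its first base lies 189 bases before that start and 965 bases before the most downstream Sgk1 start, at chr10:21993701-21993715, where the letters are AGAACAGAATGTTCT. The half-sites AGAACA and TGTTCT stood in 3 Sgk1 windows (19.0% of all windows), and in none of the windows of Klf9, Ddit4 and Fkbp5. An E-box, CACGTG, stood in the Fkbp5 window and in the same Sgk1 window (7.15% of all windows), where it overlaps a half-site. A GC box, GGGGCGGGG or its reverse complement, stood in the Ddit4 window (11.4% of all windows). Both strands were searched, and a match is only a match of letters. Inexact matches and sites outside the windows were not searched, so a window without a match does not mean a gene without a response element. The windows of Klf9 and Ddit4 are shown because those genes differed most between the groups, and that of Sgk1 because it holds the element; capitals mark the motifs named here.
Sgk1, chr10:21993640-21993939, plus strand: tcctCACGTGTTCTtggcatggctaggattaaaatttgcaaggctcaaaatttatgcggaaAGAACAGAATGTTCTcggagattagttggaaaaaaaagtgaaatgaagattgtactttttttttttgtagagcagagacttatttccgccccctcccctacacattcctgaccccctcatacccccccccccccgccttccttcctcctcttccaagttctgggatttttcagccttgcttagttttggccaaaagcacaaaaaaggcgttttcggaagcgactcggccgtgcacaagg
Klf9, chr19:23140976-23141275, plus strand: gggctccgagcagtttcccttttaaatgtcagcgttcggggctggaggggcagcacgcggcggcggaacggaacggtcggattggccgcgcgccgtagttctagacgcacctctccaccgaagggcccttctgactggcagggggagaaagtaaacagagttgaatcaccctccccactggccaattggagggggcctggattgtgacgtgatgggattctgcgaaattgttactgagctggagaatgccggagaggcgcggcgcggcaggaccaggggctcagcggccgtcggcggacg
Ddit4, chr10:59951721-59952020, minus strand: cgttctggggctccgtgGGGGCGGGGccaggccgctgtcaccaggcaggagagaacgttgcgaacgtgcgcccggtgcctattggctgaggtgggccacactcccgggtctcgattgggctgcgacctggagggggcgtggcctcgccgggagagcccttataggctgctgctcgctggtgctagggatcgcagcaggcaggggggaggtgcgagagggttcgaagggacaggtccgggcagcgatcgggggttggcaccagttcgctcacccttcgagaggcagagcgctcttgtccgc

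Values are MAS5 signals, an arbitrary brightness on a linear scale. Median signal was 202.8 to 219.7 per array, and the log2 signals of any 2 arrays correlated at 0.945 to 0.961 across tested probe sets, whether of 1 group or of both. Non-deprived replicate 3 stood apart in 1 control, with a signal of 2689 for the 3′ end of 18S ribosomal RNA against 661 to 981 on the other arrays. Member values are therefore also given without that array. Of the neuron markers 7 were tested, 6 lower and 1 higher in mean in deprived arrays (median log2 change -0.13), with overlapping sums (29818 to 32640 in non-deprived and 28262 to 33494 in deprived arrays) and none at an unadjusted p under 0.05 by limma. The part of neuron content in the member values was not tested. Changes are deprived minus non-deprived on log2(signal + 16), which makes changes of low signals smaller. A probe set was tested if its mean signal was in the top 60%, that is at least 134.7. Adjusted p-values come from limma with Benjamini-Hochberg adjustment over the 7453 tested probe sets.

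Of the 6 member probe sets 5 were tested, and Nr3c1 fell under the filter. By limma, 0 of the 5 had an adjusted p under 0.05, where 0.174% of all tested probe sets did. At an unadjusted p under 0.05 there were 2 of 5, the bright Klf9 probe set with a lower and the Ddit4 probe set with a higher mean in deprived cortex, where the share of all tested probe sets was 5.09%. The same 2 had groups of arrays that did not overlap, as did 10.1% of all tested probe sets. The genes were chosen with earlier results of these arrays known, so these counts are a description.

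**Figure D1:**
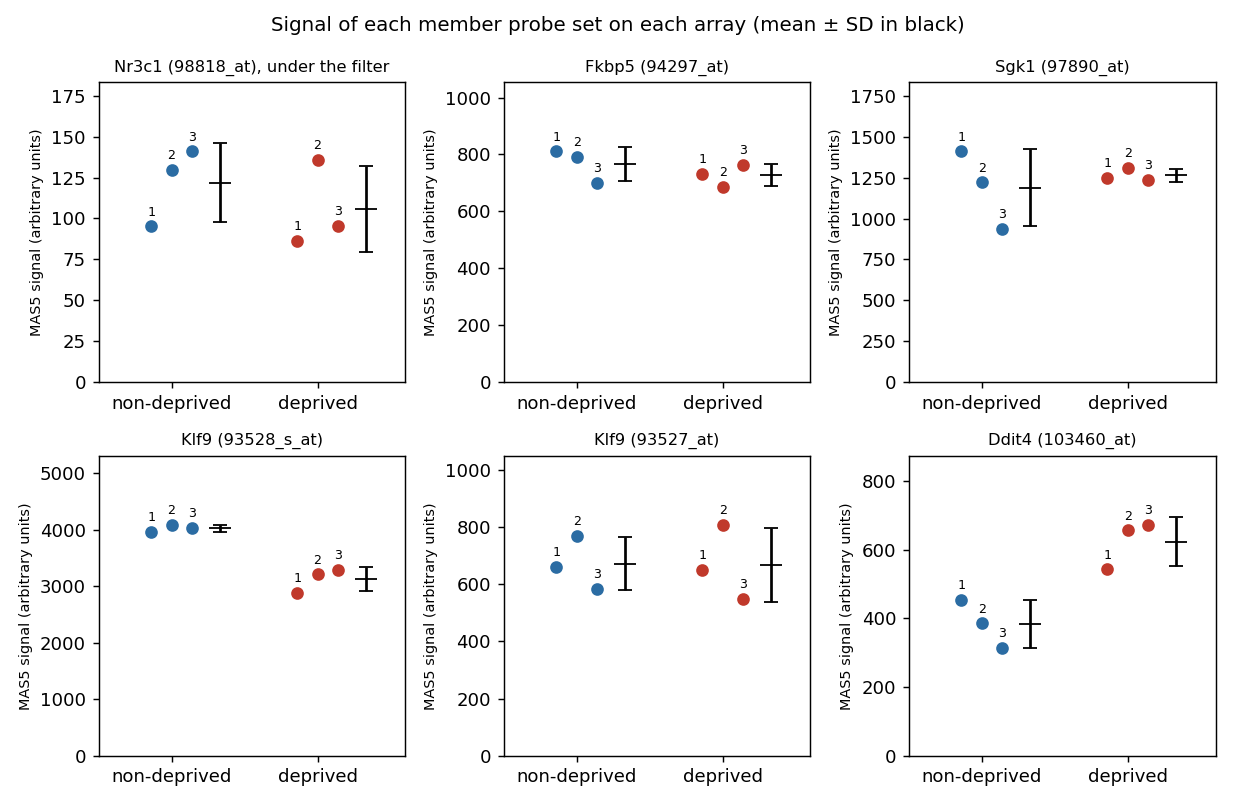
MAS5 signal (arbitrary units, axis from 0) of each member probe set on each array; points are arrays with their replicate numbers, black bars the mean ± SD of 3 arrays. The groups do not overlap for Klf9 on 93528_s_at (2887 to 3289 in deprived, 3963 to 4079 in non-deprived arrays) and for Ddit4, and overlap for the other 4 probe sets.

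Nr3c1 encodes the receptor. Its probe set 98818_at read 95.1, 129.9 and 141.0 in non-deprived replicates 1, 2 and 3, and 86.1, 135.8 and 95.4 in deprived replicates 1, 2 and 3. The groups overlapped, with 1 low array among the non-deprived and 2 among the deprived. The mean was 122 ± 23.9 (SD, n = 3) against 106 ± 26.4, under the filter's 134.7, and without detection calls it cannot be said to exceed background. In the fit with no filter its log2 change was -0.19 (SE 0.33, 95% interval -0.93 to 0.55). The interval is wide and depends on the pseudocount at such low signals, so the receptor's level in the 2 groups was not resolved here.

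Of the other genes for steroid receptors and corticosteroid handling, 11 of 16 listed were on the array, Nr3c1 among them, and only 3 passed the filter. Hsd11b1 encodes the enzyme that regenerates active glucocorticoid inside cells. It read 338, 349 and 378 in non-deprived and 231, 240 and 308 in deprived arrays, groups that did not overlap (a log2 change of -0.44 with SE 0.19, at unadjusted p = 0.042 and limma adjusted p = 0.95). Esrra, an orphan receptor related to the oestrogen receptors, had a log2 change of 0.03 (SE 0.14), with -0.37 (SE 0.23) on an _f probe set, a kind that can share probes with related transcripts. Median log2 change of the 3 was -0.03, and 0.01 over all 5653 genes tested, each by its brightest probe set.

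Fkbp5 read 810, 790 and 698 in non-deprived replicates 1, 2 and 3, and 732, 685 and 763 in deprived replicates 1, 2 and 3. Every deprived array lay within or just under the range of the non-deprived ones. The means were 766 ± 59.7 and 727 ± 39.2 (log2 change -0.07, SE 0.12, 95% interval -0.35 to 0.21, limma adjusted p = 0.97). The interval allows a level in deprived cortex from 1.28-fold lower to 1.15-fold higher.

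The receptor's chaperone machinery, of which Fkbp5 is a part, showed small differences. All 14 listed chaperones and immunophilins on the array were tested, 11 with a lower and 3 with a higher mean in deprived arrays, none with an adjusted p under 0.05 and none with an unadjusted p under 0.05 (limma). Their median log2 change was -0.06, with a range of -0.21 to 0.14. Fkbp4, the immunophilin that Fkbp5 competes with in the receptor complex, read 1952 and 1955 on average (log2 change 0.02, SE 0.13, and 0.19, SE 0.16, on an _r probe set; picked once its values were known). The Hsp70-family member Hspa4 had a log2 change of -0.19 (SE 0.11), with 0.25 and 0.27 on 2 other tested probe sets, -0.14 on another and 0.18 on an untested one, so its probe sets do not share a sign. Dnajb1, a co-chaperone of Hsp70, had -0.21 (SE 0.13). In the wider family of FK506-binding proteins 8 genes were tested, with a median of -0.03 and none at an unadjusted p under 0.05; Fkbp8 (-0.21, SE 0.13) and Fkbp3 (-0.20, SE 0.13) had the smallest p-values.

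Coregulators, the proteins through which the bound receptor opens or closes chromatin, were tested for 14 of 16 genes on the array. Of these 7 had a lower and 7 a higher mean in deprived arrays. Their median log2 change was -0.04, and none passed the adjusted threshold. Sin3a, a scaffold of histone deacetylase complexes, had the smallest p (854 ± 109 to 1062 ± 53.7, log2 change 0.32, SE 0.13, limma adjusted p = 0.95). Carm1, an arginine methyltransferase that works with nuclear receptors, had a log2 change of -0.29 (SE 0.14).

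Sgk1 read 1412, 1222 and 939 in non-deprived replicates 1, 2 and 3, and 1249, 1311 and 1239 in deprived replicates 1, 2 and 3. The deprived arrays lay close together inside the wide non-deprived range. The means were 1191 ± 238 and 1266 ± 38.9 (log2 change 0.11, SE 0.15, 95% interval -0.22 to 0.44, limma adjusted p = 0.97). The low value is that of non-deprived replicate 3, which also had the high 18S signal, and without that array the log2 change was -0.05. The summed signal of the 4 tested markers of meninges and choroid plexus was also lowest on that array. It was 25914, 23825 and 18581 in the non-deprived and 24663, 25156 and 23582 in the deprived arrays. Most of it came from Ptgds, a prostaglandin D synthase. Ptgds and Slc6a13 were lowest on that array, but Igf2 and Dcn were not (the last 3 were picked once their values were known). Only these 4 of the 7 listed markers on the array passed the signal filter, so their lowest signal (255) does not speak for the rest. Sums of the tested oligodendrocyte (10017) and microglia (4656) markers were lowest on non-deprived replicate 3 too. Those of neuron, astrocyte, endothelium and red blood cell markers were not. The part of these tissues and cell types in the Sgk1 values was not tested.

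The kinases related to Sgk1, their activators and the substrates of Sgk1 were tested for all 13 genes on the array. Taking the brightest probe set of each gene, 5 had a lower and 8 a higher mean in deprived cortex. Their median log2 change was 0.05, and none of these probe sets had an unadjusted p under 0.05 by limma. Slc9a3r2, an adaptor for ion transporters, had 0.39 (SE 0.25) and Pik3r1, a regulatory subunit of PI3 kinase, 0.23 (SE 0.16). Nedd4l, the ubiquitin ligase that Sgk1 phosphorylates, had -0.16 (SE 0.14) on an _f probe set and -0.09 on its other one. Ndrg1 is, as a protein, a commonly used readout of Sgk1 kinase activity. It had -0.07 (SE 0.12) on its brightest probe set and 0.35 (SE 0.11) on an _s probe set. Both Nedd4l and Ndrg1 were picked once their values were known.

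Klf9 was measured by 2 probe sets that gave different pictures. The bright one, 93528_s_at, read 3963, 4079 and 4032 in non-deprived replicates 1, 2 and 3, and 2887, 3208 and 3289 in deprived replicates 1, 2 and 3. All deprived arrays were below all non-deprived ones. The means were 4025 ± 58.1 and 3128 ± 212 (n = 3 each), a 1.29-fold difference (log2 change -0.36, SE 0.08, 95% interval -0.55 to -0.17). Its unadjusted p of 0.0017 ranked 35 among the 7453 tested probe sets, and its adjusted p was 0.35 by limma. The suffix _s marks a probe set whose oligonucleotides can match more than 1 related transcript.

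The dimmer Klf9 probe set, 93527_at, read 660, 769 and 585 in non-deprived replicates 1, 2 and 3, and 651, 807 and 549 in deprived replicates 1, 2 and 3. The groups overlapped almost fully, with replicate 2 the highest in both. The means were 671 ± 92.4 and 669 ± 130 (log2 change -0.01, SE 0.17, 95% interval -0.40 to 0.37, limma adjusted p = 1.00). That interval contains the -0.36 of the bright probe set.

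The disagreement of the 2 Klf9 probe sets, the only such pair among the members, can be read from their difference within each array. The bright minus the dim log2 signal was 2.56, 2.38 and 2.75 in non-deprived and 2.12, 1.97 and 2.55 in deprived arrays. The highest deprived array lay inside the non-deprived range. The mean difference was 2.56 ± 0.18 against 2.21 ± 0.30, a shift of -0.35, larger than the SD within either group. A two-sided exact permutation test gave p = 0.2, but 3 against 3 arrays allow no p under 0.1, and the comparison was made because the probe sets were known to disagree, so the shift is a description.

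Astrocyte markers had no common direction. Their summed signal was lower in deprived arrays (12405 to 13913 against 13928 to 14932), but this came from Aldoc, an aldolase: without it the sum was 5814 to 6221 in deprived and 5844 to 6007 in non-deprived arrays. Of the 6 tested markers, each by its brightest probe set, 3 had a lower and 3 a higher mean, with a median log2 change of 0.04. An unadjusted p under 0.05 (limma) was found for 1 of these, Aldoc (-0.25, SE 0.10, picked once its values were known). Over all tested probe sets the share was 5.09%. Another tested probe set had the opposite sign for Gfap (1.04, SE 0.58), Gja1 (0.38, SE 0.28) and Aqp4 (-0.08, SE 0.22). These were picked once their values were known. No tested astrocyte marker was at 0 (lowest signal 264). Their part in the Klf9 result was not tested, and in such tissue samples fewer cells of a type and less RNA per cell cannot be told apart.

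Among Krüppel-like factors and their Sp relatives 12 of 14 genes on the array were tested, 9 with a lower and 3 with a higher mean in deprived cortex, with a median log2 change of -0.03 and 0 past the adjusted threshold. At an unadjusted p under 0.05 (limma) there were 3 of 12 by the brightest probe set of each gene. All 3 were lower: Klf9, around which the list was drawn, Klf10 and Klf7. Over all tested probe sets the share was 5.09%. Klf10, a TGF-beta-inducible factor, read 1062, 937 and 1075 in non-deprived and 731, 669 and 761 in deprived arrays, groups that did not overlap (a log2 change of -0.50 with SE 0.12, at adjusted p = 0.43), and its other probe set gave -0.30 (SE 0.15). Klf7, a factor of neurite growth, read 551, 570 and 586 in non-deprived and 518, 377 and 422 in deprived arrays (a log2 change of -0.37 with SE 0.16, at adjusted p = 0.95). Klf13, of the same subgroup as Klf9, had -0.04 (SE 0.11) and -0.25 (SE 0.10) on 2 probe sets (picked once its values were known).

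Ddit4 read 453, 385 and 313 in non-deprived replicates 1, 2 and 3, and 543, 657 and 672 in deprived replicates 1, 2 and 3. All deprived arrays were above all non-deprived ones. The means were 384 ± 69.9 and 624 ± 70.4 (n = 3 each), a 1.62-fold difference on the linear scale (log2 change 0.69, SE 0.17, 95% interval 0.30 to 1.08). Its unadjusted p of 0.0029 ranked 43 among the 7453 tested probe sets, and its adjusted p was 0.50 by limma. Ddit4 was lowest in non-deprived replicate 3, which had the high 18S signal, and without that array its log2 change was 0.55. The sign was opposite to that of the bright Klf9 probe set.

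**Figure D2:**
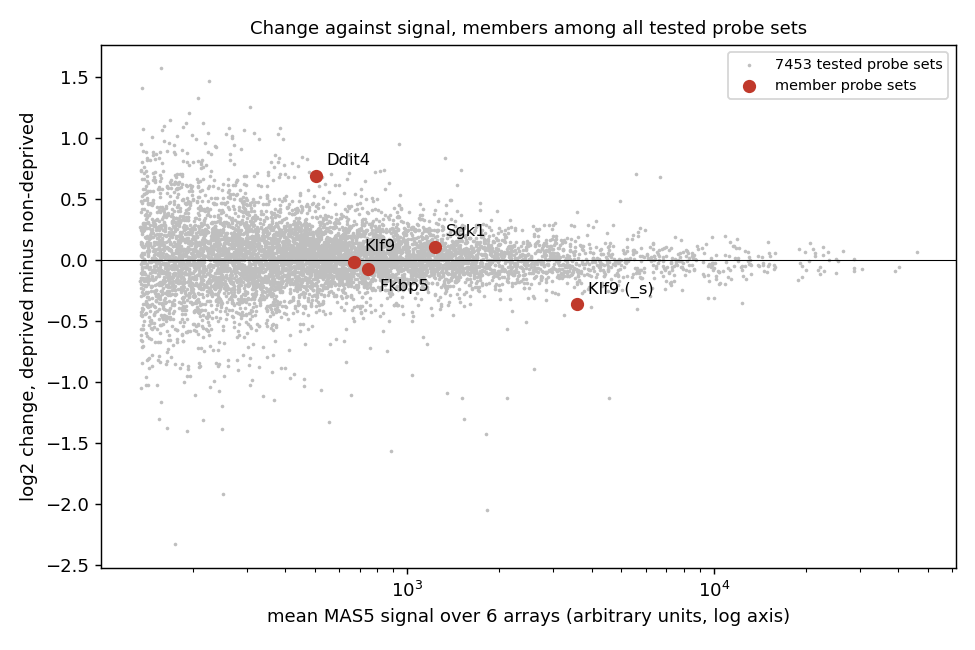
Log2 change (deprived minus non-deprived) against mean MAS5 signal (log axis, arbitrary units) for the 7453 tested probe sets in grey and the 5 tested member probe sets in red. Ddit4 (0.69) and the _s probe set of Klf9 (-0.36) lie at the edge of the cloud for their signal, and Sgk1, Fkbp5 and the other Klf9 probe set lie near 0.

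Partners and targets of Ddit4 in the TSC and mTORC1 pathway were tested for 15 of 16 genes on the array, Ddit4 included. The list was drawn around Ddit4. Among all 5653 tested genes 2677 had a lower and 2976 a higher mean, and 5.18% had an unadjusted p under 0.05 (limma). In the list 3 had a lower and 12 a higher mean in deprived cortex, with a median log2 change of 0.08. Ddit4 was the only one of the list with such a p. For most of the higher genes non-deprived replicate 3, the array that stood apart in a control, was the lowest non-deprived array (Stk11: 506, 394 and 345). Mtor and Tsc2, with lower means, were also lowest there, and Txnip and Ywhab were highest there. The split without that array was not tested. Stk11, the kinase that activates AMPK, read 415 ± 82.4 and 521 ± 31.3 (log2 change 0.33, SE 0.17, limma adjusted p = 0.97). Mtor itself had -0.20 (SE 0.11), and its other probe set gave -0.08 (SE 0.15). Tsc1 and Tsc2, whose complex carries the effect of Ddit4 on mTORC1, had 0.00 (SE 0.13) and, on an _s probe set, -0.04 (SE 0.11). Hif1a, the hypoxia factor that also induces Ddit4, had 0.16 (SE 0.11) on an _f probe set. These 3 were picked once their values were known.

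Genes known to be induced by glucocorticoids in brain or other tissues gave no common direction. Of 46 listed genes 41 were on the array and 33 were tested, 14 with a lower and 19 with a higher mean in deprived cortex, with a median log2 change of 0.02 against 0.01 over all genes. The adjusted threshold was passed by 1, which fell: Dusp1, a phosphatase of MAP kinases that neuronal activity also induces, with 3023, 2660 and 3025 in non-deprived and 1433, 1207 and 1314 in deprived arrays (a log2 change of -1.13 with SE 0.11, at limma adjusted p = 0.0014). At an unadjusted p under 0.05 (limma) there were 3 lower (Dusp1, Klf9 and Ccn2) and 3 higher (Rhob, Ddit4 and Cdkn1c). Klf9 and Ddit4 are members, around which the list was drawn. Among all 5653 tested genes 5.18% had such a p, and 0.174% of all tested probe sets passed the adjusted threshold. Rhob, a small GTPase of endosomes, read 4649, 3943 and 3793 in non-deprived and 6246, 4971 and 6160 in deprived arrays, groups that did not overlap (a log2 change of 0.49 with SE 0.11, at adjusted p = 0.36). Ccn2, a secreted matrix protein, had -0.54 (SE 0.21) and Cdkn1c, a cell cycle inhibitor, 0.51 (SE 0.23); both were picked once their values were known.

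Values of 5 other genes on the list, picked once their values were known, serve as examples of genes with no p under 0.05. The metallothioneins Mt1 and Mt2, which bind zinc and are classical hormone targets, had log2 changes of 0.02 (SE 0.09, 95% interval -0.17 to 0.22) and -0.02 (SE 0.09, -0.21 to 0.17). Zbtb16, a zinc-finger factor, had 0.01 (SE 0.14). Nfkbia, the inhibitor of NF-kappaB, had 0.04 (SE 0.13), and -0.17 (SE 0.23) on its other probe set. The clock gene Per1 had -0.21 (SE 0.17, 95% interval -0.60 to 0.18). The groups of arrays did not overlap for 7 of the 33 genes, where 10.1% of all tested probe sets did not overlap, and the list was drawn up with earlier results on these arrays known.

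**Figure D3:**
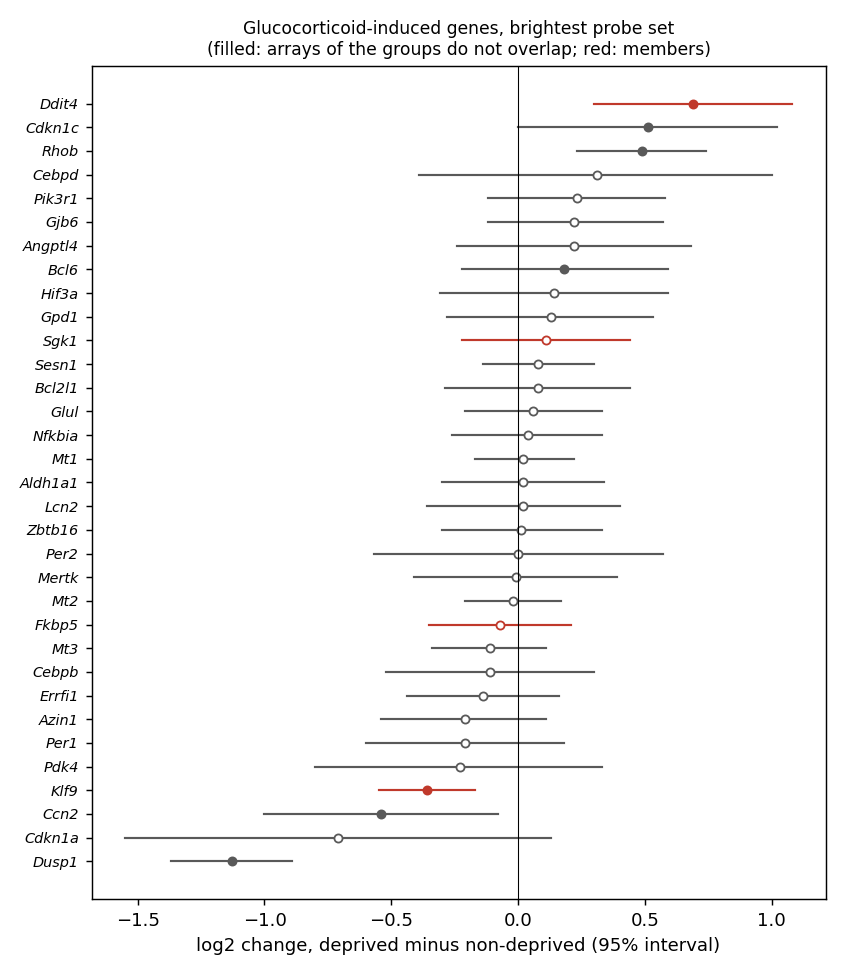
Log2 change with its 95% interval for the 33 tested glucocorticoid-induced genes, each by its brightest probe set, in order of change; members are red and filled points mark genes whose groups of arrays do not overlap. Dusp1 (-1.13) lies lowest and Ddit4 (0.69) highest, with Klf9 and Ddit4 on opposite sides of 0.

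The probe sets whose log2 signal followed each member most closely over the 6 arrays are given as a description. Each came from 6714 to 6716 named probe sets, the points share tissue and scaling, and between 50 and 102 probe sets had an r over 0.9 with a member. For the bright Klf9 probe set they were Phlda1 (Pearson r = 0.991) and the dimmer probe set of Klf10 (0.990), which like Klf9 were lower on all deprived arrays. For Ddit4 they were Yipf1 (0.993) and Mrps15 (0.989). Sgk1 was followed by Ptgds (0.990) and Fcf1 (0.980), Fkbp5 by Tenm4 (0.985) and Abcf2 (0.975), and the Nr3c1 probe set by Snx13 (0.991) and Dnttip2 (0.991).

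How far the member values rested on single arrays or on the processing was examined in 14 alternatives. The bright Klf9 probe set kept its sign in 14 of 14 with log2 changes of -0.40 to -0.31 and adjusted p of 0.28 to 0.96, and Ddit4 in 14 of 14 with 0.55 to 0.81 and adjusted p of 0.31 to 0.99 (limma). Fkbp5 ranged from -0.14 to -0.03 and Sgk1 from -0.05 to 0.24. The dimmer Klf9 probe set ranged from -0.16 to 0.12 and Nr3c1 from -0.36 to -0.07, each in the 13 alternatives that held it. Without non-deprived replicate 3 the log2 change was -0.14 for Fkbp5 and -0.09 for Nr3c1. It was -0.36 for the bright and -0.11 for the dimmer Klf9 probe set.

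**Figure D4:**
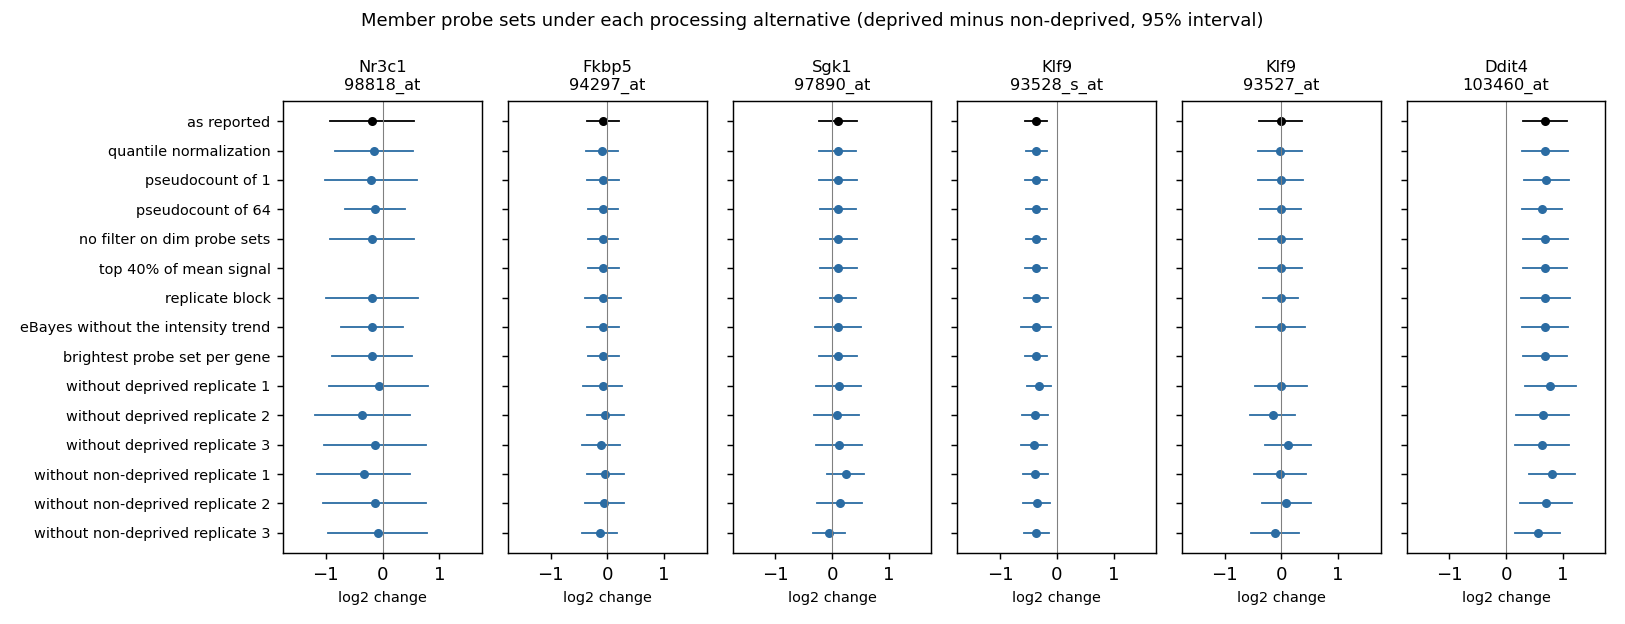
Log2 change (deprived minus non-deprived) with its 95% interval for each member probe set under the fit as reported (black) and each alternative (blue), 1 row per alternative; an empty row means that the probe set was not in that fit. The Ddit4 intervals stay above 0 and those of the bright Klf9 probe set below 0 in every row, while the intervals of the other 4 probe sets include 0.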

How the data were processed

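The deposited table covers 12488 probe sets on 6 arrays and holds intensity, the linear MAS5 signal made by the authors (per the submitters' processing notes). MAS5 versions and detection calls were not used here. Each deposited intensity column had a 2% trimmed mean of 500.3, so scaling to a common trimmed mean left values as they were, and a change in total mRNA cannot be seen. After 66 control probe sets were set aside, those in the top 60% of mean signal (7453) were fitted on log2(signal + 16) by lmFit and eBayes (trend on intensity) of limma 3.58.1, R 4.3.3. The model held group alone, tests were two-sided, p-values were adjusted by Benjamini-Hochberg, and the fit was checked on simulated data. Nr3c1, under the filter, was taken from the fit with no filter. Symbols came from the platform annotation through Entrez IDs to RefSeq (GRCm38.p6). Of the probe sets 10855 had 1 symbol, 396 had several and stood for no single gene, and 1237 were unnamed here.

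Members and gene lists were chosen with earlier results of these data known. In lists a gene stands by its brightest probe set. Named are all member probe sets, the 2 genes of each list with the smallest p besides the members, every list gene past the adjusted threshold, and the 2 probe sets most correlated with each member; other names are marked. Alternatives were quantile normalization, pseudocounts of 1 and 64, no filter, the top 40%, a replicate block, no intensity trend, 1 probe set per gene, and each array left out; the astrocyte sum without Aldoc was added after seeing the data. The Nr3c1 promoter and the genomic positions of the probes are not analysed here.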

Additional observations from a re-analysis of the deposited data

How the results depend on the processing

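Across the alternatives, 0 member probe sets passed the adjusted threshold, and the same 2 (the bright Klf9 probe set and Ddit4) had an unadjusted p under 0.05 in each of the 14. Over all probe sets the number past the adjusted threshold, 13 as reported, was 7 to 10 when 1 array was left out (7 without non-deprived replicate 2, and 8 without non-deprived replicate 3 or deprived replicate 3), and 9 to 13 otherwise. The dimmer Klf9 probe set turned from -0.01 to 0.12 without deprived replicate 3 and to 0.086 without non-deprived replicate 2, and Sgk1 turned from 0.11 to -0.053 without non-deprived replicate 3 (ranges with 1 array left out: -0.16 to 0.12 and -0.053 to 0.24); the cause was not tested. The shift between the Klf9 probe sets was -0.52 to -0.23 when 1 array was left out and -0.33 with quantile normalization. With the replicate number as a block the log2 changes were the same, 10 probe sets passed in all, and the adjusted p was 0.51 for the bright Klf9 probe set and 0.68 for Ddit4. Deviations of same-numbered arrays correlated at 0.003, 0.049 and -0.02 across probe sets, so the numbers were not taken to pair the arrays. Nr3c1 could not be tested in the top 40%, nor the dimmer Klf9 probe set with 1 probe set per gene. With 3 arrays a group and no detection calls, precision was limited most for Nr3c1.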
